A study of Mus musculus with 8 samples.

Results

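The MAP kinase phosphatases examined here are 9 genes of the dual-specificity phosphatase (DUSP) family, Dusp1, Dusp2, Dusp4, Dusp5, Dusp6, Dusp8, Dusp10, Dusp14 and Dusp16. They were taken by gene symbol from the deposited table of FPKM values, where all 9 were found among 24339 genes. FPKM scales sequenced fragments to transcript length and to the size of the library, so levels can be compared between genes. RNA came from peritoneal macrophages, phagocytic cells found in the abdominal cavity, kept in culture after washing of the plated cells. The mice were C57BL/6 and either α7nAChR-/-, lacking the nicotinic acetylcholine receptor of the α7 type whose gene is Chrna7, or wild type. A first step of 15 min used nicotine (10 µM) or its vehicle, and a second of 4 h used lipopolysaccharide (LPS, 100 ng/ml), a bacterial cell wall component, or its vehicle. The 8 groups were therefore nicotine with LPS, LPS alone, nicotine alone and vehicle alone, each in knockout and in wild type cells, with 1 library per group and no replicate of any group. The number and age of the mice, any pooling and the number of cell preparations are not given in the labels, and genotype cannot be told apart from preparation.

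Mitogen-activated protein (MAP) kinases, the ERK, JNK and p38 enzymes, carry signals from Toll-like receptors to cytokine genes and are switched on by phosphorylation of a threonine and a tyrosine in their activation loop. Dual-specificity phosphatases remove both phosphates. Many of them are themselves transcribed in response to MAP kinase signals, which gives negative feedback. In macrophages Dusp1 is best known for restraining p38 and JNK, and thereby cytokine output, after LPS.

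Chrna7 was listed at 0 FPKM in all 8 libraries, wild type included, so the genotype labels could not be checked from it. The 6 macrophage markers were all present, with summed levels of 19226 to 34500 FPKM, most of it the lysozyme gene Lyz2, and the 6 markers of resident peritoneal macrophages summed to 218 to 494 FPKM. Markers of other cells were also detected. The 5 B cell markers summed to 161 to 352 FPKM over the libraries, while the 5 T cell markers found in the table summed to 3.07 to 10.1 FPKM. The 5 neutrophil markers in the table summed to 22.8 to 175 FPKM, nearly all of it S100a8, and the 7 mesothelial and fibroblast markers to 0.93 to 15.4 FPKM. The 6 mast cell markers summed to 572 FPKM in knockout and 751 FPKM in wild type cells given nicotine and LPS, 207 and 281 FPKM with LPS alone, 299 and 392 FPKM with nicotine alone, and 157 and 207 FPKM with vehicle. The 5 dendritic cell markers, of which Ccr7 had the highest level, summed to 124 FPKM in knockout and 74.9 FPKM in wild type cells given nicotine and LPS, 67.2 and 39.3 FPKM with LPS alone, 38.2 and 35.0 FPKM with nicotine alone, and 15.4 and 8.51 FPKM with vehicle. No marker in the table was at 0 in every library. In RNA from whole cultures, fewer cells of a type and less RNA per cell cannot be told apart.

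Promoter sequence from RefSeq on GRCm38.p6 was matched for 8 of the 9 genes, all but Dusp4. The 250 bases before the transcription start were searched on both strands for 5 motifs. These were the cAMP response element TGACGTCA, the AP-1 motif TGANTCA, the C/EBP-ATF response element TGATGNAAN, and the κB and CArG motifs. The cAMP response element was found once in Dusp1, 143 bases before the start, and 2 times in Dusp8, 107 and 63 bases before the start, counted to the first base of the match. Among 32851 RefSeq promoter windows of the same length, 1.55% held it. The CArG motif was found 2 times in Dusp5 and in 1.47% of all windows. No match to the AP-1 motif, the C/EBP-ATF element or the κB motif was found in the 8 windows, against 6.75%, 3.44% and 7.25% of all windows. No matches to different motifs overlapped. A match to these letters is a description of the sequence and does not show binding. The stretches below are those of Dusp1 and Dusp8, which hold the cAMP response element, and of Dusp16 and Dusp2, each of which had the other as its nearest expression profile, free of exons in GENCODE M21. They run 5′ to 3′ on the strand of the gene, with matches in capitals.
Dusp1, chr17:26508520-26508722, minus strand: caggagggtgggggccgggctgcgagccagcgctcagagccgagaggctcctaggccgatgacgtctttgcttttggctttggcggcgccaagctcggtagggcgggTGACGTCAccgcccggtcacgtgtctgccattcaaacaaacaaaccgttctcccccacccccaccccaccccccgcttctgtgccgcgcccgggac
Dusp8, chr7:142095285-142095534, minus strand: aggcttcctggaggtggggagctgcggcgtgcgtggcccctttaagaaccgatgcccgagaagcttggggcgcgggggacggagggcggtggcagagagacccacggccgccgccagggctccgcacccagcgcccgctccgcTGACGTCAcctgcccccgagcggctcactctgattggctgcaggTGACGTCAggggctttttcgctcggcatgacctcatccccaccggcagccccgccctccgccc
Dusp16, chr6:134792629-134792878, minus strand: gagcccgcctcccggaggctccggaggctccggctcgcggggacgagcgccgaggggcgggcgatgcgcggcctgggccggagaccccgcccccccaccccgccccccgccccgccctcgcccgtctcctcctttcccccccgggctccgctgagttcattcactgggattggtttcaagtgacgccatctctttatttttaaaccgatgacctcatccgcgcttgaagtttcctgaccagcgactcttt
Dusp2, chr2:127335909-127336158, plus strand: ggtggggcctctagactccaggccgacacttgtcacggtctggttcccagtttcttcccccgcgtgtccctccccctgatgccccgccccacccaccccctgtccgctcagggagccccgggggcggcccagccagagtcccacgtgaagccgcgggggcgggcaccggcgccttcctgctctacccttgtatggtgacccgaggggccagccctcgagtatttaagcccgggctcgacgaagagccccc

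Resting cells held few of these transcripts. Summed over the 9 genes, the level was 160 FPKM in knockout and 175 FPKM in wild type cells given nicotine and LPS, 363 and 333 FPKM with LPS alone, 99.6 and 157 FPKM with nicotine alone, and 34.2 and 28.7 FPKM with vehicle. The FPKM of all genes also differed, at 627160 and 657052 with nicotine and LPS and 854016 and 795630 with LPS alone. They were 523764 and 529093 with nicotine alone and 442307 and 413052 with vehicle. The sums of the 9 genes were not adjusted for this. With vehicle, Dusp1 and Dusp6 together made up most of the sum, at 32.8% and 26.8% in knockout and 28.0% and 33.8% in wild type cells. With LPS alone, Dusp16 held the largest share, 34.6% in knockout and 31.6% in wild type cells, ahead of Dusp1 and Dusp2. With nicotine alone, Dusp1 reached 52.3% in knockout and 68.3% in wild type cells. With nicotine and LPS, Dusp1 (31.4%) and Dusp4 (25.1%) led in knockout cells, and Dusp1 (51.7%) led in wild type cells.

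**Figure D1:**
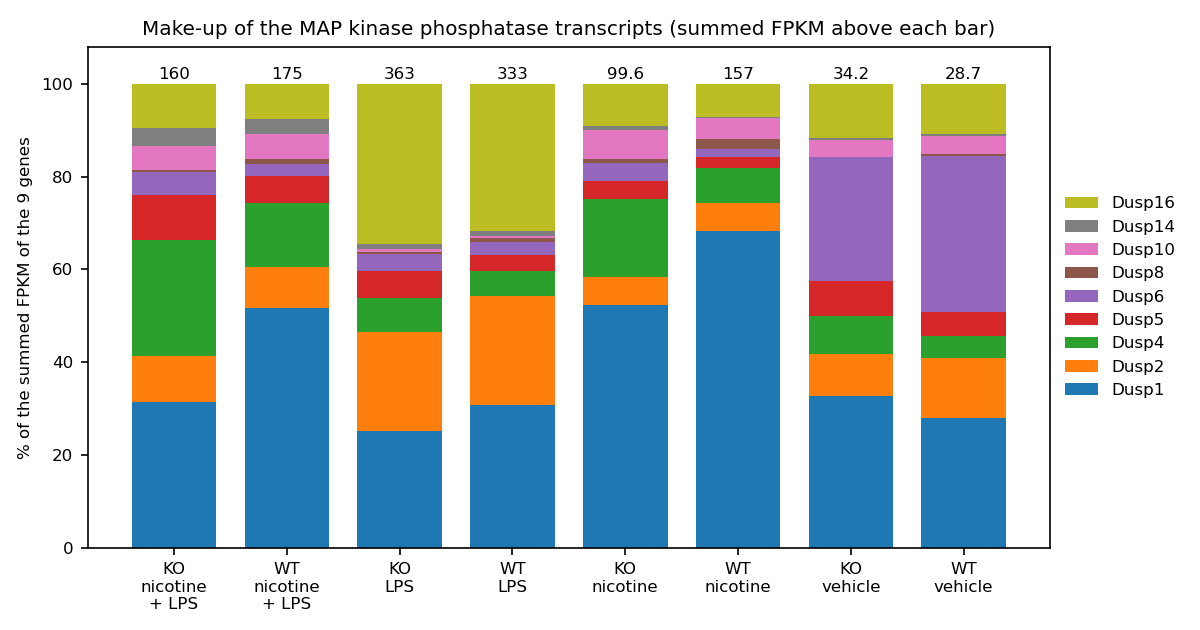
Stacked bars give the percentage of the summed FPKM of the 9 genes that each gene took in each of the 8 libraries, with the sum in FPKM above each bar. Dusp16 and Dusp2 widen with LPS alone, where the sum reaches 363 FPKM in knockout and 333 FPKM in wild type cells, and Dusp6 is wide only in the vehicle bars.

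Each treatment was tested with limma on log2(FPKM + 1) over the 10447 genes whose mean reached 1 FPKM, with treatment as 4 levels and genotype as a further term. A treatment thus had n = 2 libraries, 1 per genotype, and the spread was how far its effect differed between genotypes. Where groups of so few libraries are said below not to overlap, this describes the values and adds no support to a call. How often it held over all genes was not counted. All 9 genes passed the filter on the mean. Dusp8 and Dusp14 were at or above 1 FPKM in only 4 libraries each and passed through the groups where they were high, so a call for them in those groups is little more than the filter required. Log2 changes are given with the standard error (SE), and p-values were adjusted by the Benjamini-Hochberg method over all genes tested. The comparisons share libraries, so their results are not independent of each other, and a p-value reflects no more than the scatter among these 8 libraries, which may be technical.

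**Figure D2:**
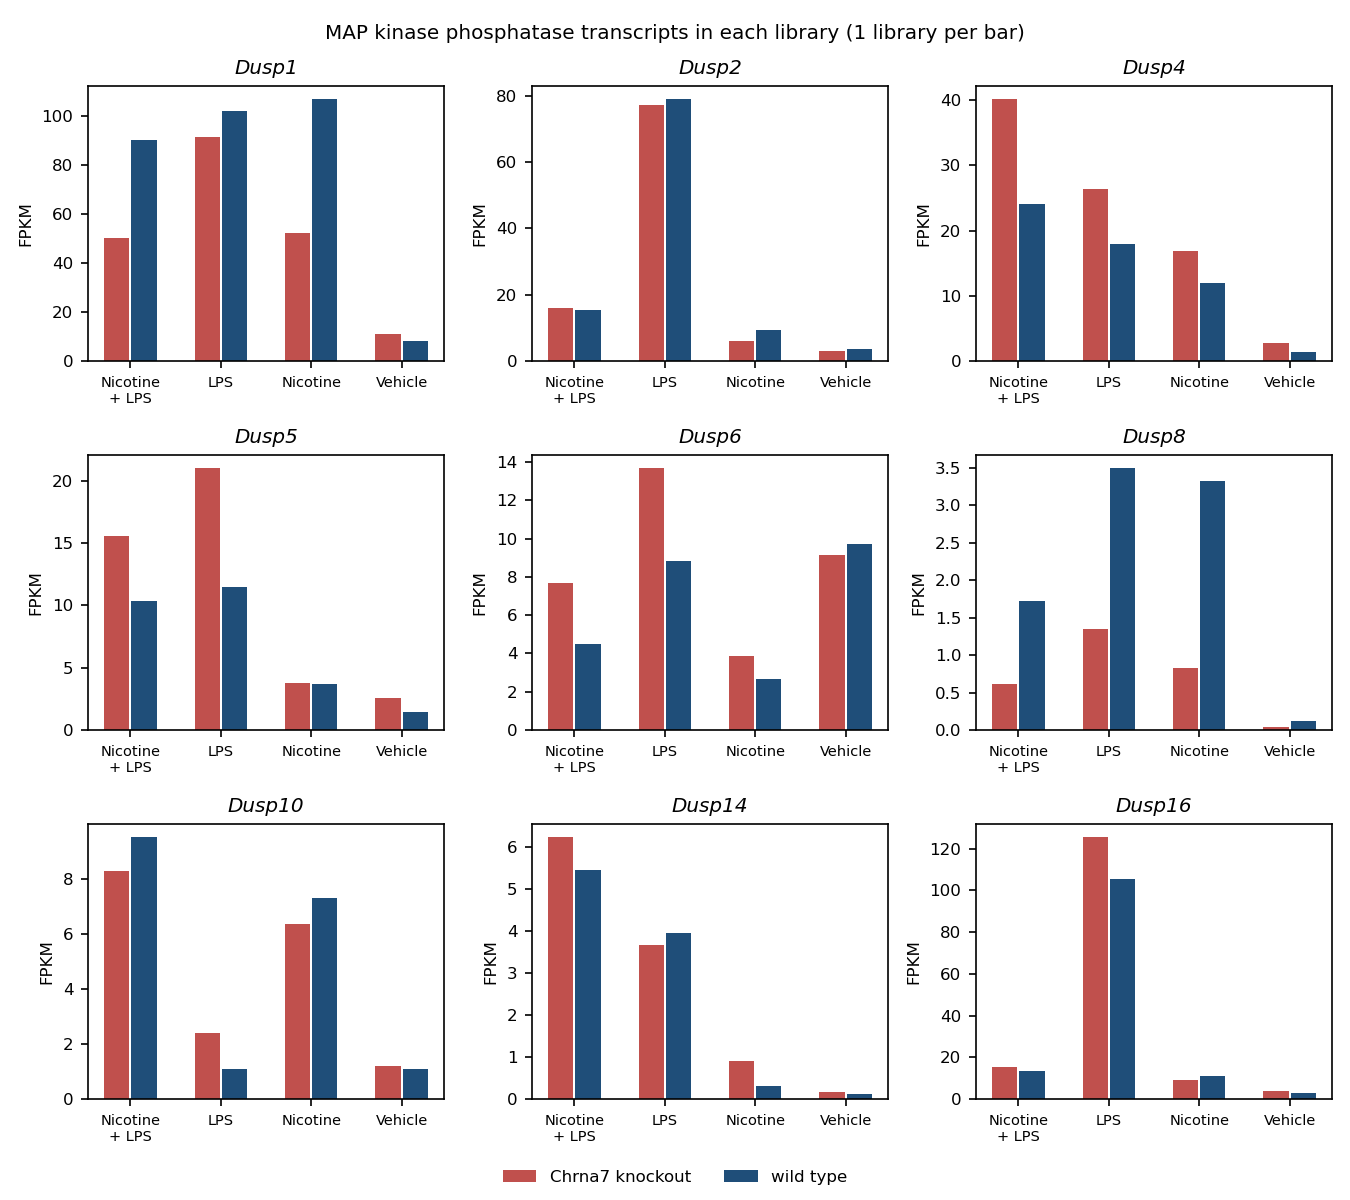
Bars give the FPKM of each gene in each library, 1 library per bar, with knockout in red and wild type in blue and the axis of each panel starting at 0. Dusp16 and Dusp2 stand high with LPS alone, at 77.1 to 125 FPKM, and low in the other 3 treatments, whereas Dusp10 is high in the 4 libraries given nicotine and Dusp6 is lowest in those given nicotine alone.

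With LPS alone, against vehicle, 7 of the 9 phosphatase genes rose and none fell. Over all genes tested, 32.7% were called higher and 26.4% lower in this comparison (59.1% in all). The median log2 change of the 9 genes was 2.49, against 0.08 over all genes tested. Dusp8 and Dusp14 are among the 7 and passed the filter through groups where they were high. Of the 6 members with a mean of at least 5 FPKM, 5 rose and 0 fell (median 3.07). The counts over all 7399 genes at that mean were 3008 and 1527 (median 0.27). This cut does not remove the limit. Dusp5 was at 1.47 to 3.77 FPKM without LPS and met the mean through its libraries given LPS. Dusp2, Dusp4 and Dusp16 were also under 5 FPKM with vehicle. On the FPKM + 1 scale Dusp16 and Dusp2 changed most, followed by Dusp1, Dusp4, Dusp5, Dusp14 and Dusp8, while Dusp6 and Dusp10 did not pass the test. With a pseudocount of 0.1, Dusp14 (4.01) and Dusp8 (3.70) came before Dusp4 (3.41), Dusp1 (3.33) and Dusp5 (2.94).

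Dusp16 encodes a phosphatase of JNK and p38 (chromosome 6, 134715468 to 134792625, minus strand, GRCm38). It had 125 FPKM in knockout and 105 FPKM in wild type cells given LPS, against 3.99 and 3.12 FPKM with vehicle. The LPS and vehicle libraries were far apart in both genotypes. The change was 25.6-fold on the FPKM + 1 scale (log2 change 4.68 ± 0.18 SE, limma adjusted p = 4.37e-05), the 109th highest of the 10447 genes.

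Dusp2, a nuclear phosphatase that is induced early in activated leukocytes (chromosome 2, 127336159 to 127338376, plus strand), had 77.1 FPKM in knockout and 79.0 FPKM in wild type cells given LPS, against 3.11 and 3.72 FPKM with vehicle. The log2 change was 4.17 ± 0.18 (adjusted p = 6.1e-05, limma), and the levels of the genotypes were close to each other in both treatments. Dusp1, the nuclear phosphatase of p38 and JNK (chromosome 17, 26505590 to 26562128, minus strand), had 91.5 FPKM in knockout and 102 FPKM in wild type cells given LPS, against 11.2 and 8.05 FPKM with vehicle, a log2 change of 3.22 ± 0.34 (adjusted p = 0.000482). Every LPS library exceeded every vehicle library for both genes.

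The other nuclear phosphatases also rose. Dusp4, which acts on ERK and JNK (chromosome 8, 34807297 to 34819894, plus strand), had 26.4 FPKM in knockout and 18.0 FPKM in wild type cells given LPS, against 2.80 and 1.35 FPKM with vehicle (log2 change 2.93 ± 0.14, limma adjusted p = 6.1e-05). Dusp5, a nuclear phosphatase that is selective for ERK (chromosome 19, 53529109 to 53542431, plus strand), had 21.0 FPKM in knockout and 11.4 FPKM in wild type cells given LPS, against 2.53 and 1.47 FPKM with vehicle (2.49 ± 0.20, adjusted p = 0.000208). Neither gene's groups overlapped.

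Among the less abundant genes, Dusp14 and Dusp8 rose over vehicle levels far below 1 FPKM. Dusp14 encodes a small phosphatase that lacks the MAP kinase-binding domain of the others (chromosome 11, 84048041 to 84069261, minus strand). It had 3.66 FPKM in knockout and 3.95 FPKM in wild type cells given LPS, against 0.161 and 0.125 FPKM with vehicle (log2 change 2.07 ± 0.19, limma adjusted p = 0.000292). Dusp8, a phosphatase of JNK and p38 (chromosome 7, 142079490 to 142095843, minus strand), had 1.35 FPKM in knockout and 3.50 FPKM in wild type cells given LPS, against 0.0429 and 0.117 FPKM with vehicle (1.59 ± 0.28, adjusted p = 0.00304). The added 1 FPKM understates both changes, since the plain FPKM ratios of LPS over vehicle were 22.7 in knockout and 31.6 in wild type cells for Dusp14, and 31.4 and 29.9 for Dusp8.

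Dusp6 and Dusp10 gave no call with LPS alone. Dusp6, the cytoplasmic phosphatase of ERK (chromosome 10, 99263231 to 99267489, plus strand), had 13.7 FPKM in knockout and 8.81 FPKM in wild type cells given LPS, against 9.16 and 9.69 FPKM with vehicle, so it was higher with LPS in knockout cells and lower in wild type cells (log2 change 0.20 ± 0.20, 95% interval -0.29 to 0.69, limma adjusted p = 0.421). Dusp10, a phosphatase of p38 and JNK (chromosome 1, 184013302 to 184075636, plus strand), had 2.41 FPKM in knockout and 1.10 FPKM in wild type cells given LPS, against 1.21 and 1.08 FPKM with vehicle (0.32 ± 0.24, interval -0.25 to 0.89, adjusted p = 0.285). Without the knockout LPS library the Dusp10 change turned to -0.07, and without the wild type LPS library it was 0.71 and passed the test (adjusted p = 0.0224). That of Dusp6 turned to -0.11 without the knockout vehicle library.

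With nicotine alone, against vehicle, 7 of the genes rose and Dusp6 fell. Of all genes tested, 30.1% were called higher and 26% lower in this comparison (56% in all), and the median log2 change of the 9 genes was 1.27, against 0.03 over all genes. Dusp8 is among the 7 and passed the filter through groups where it was high. Of the 6 members with a mean of at least 5 FPKM, 5 rose and 1 fell (median 1.11). The counts over all 7399 genes at that mean were 2759 and 1481 (median 0.20). Here too the cut leaves the limit in place, since Dusp5 met it through its libraries given LPS. Dusp2, Dusp4 and Dusp16 were under 5 FPKM with vehicle. On the FPKM + 1 scale Dusp1 changed most, and Dusp4 and Dusp10 followed. With a pseudocount of 0.1 Dusp8 came first, with a log2 change of 3.34 against 2.96 for Dusp1.

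With nicotine alone Dusp1 had 52.1 FPKM in knockout and 107 FPKM in wild type cells, against 11.2 and 8.05 FPKM with vehicle. The log2 change was 2.85 ± 0.34 (limma adjusted p = 0.000988), the 77th highest of 10447. Its wild type level with nicotine alone was as high as with LPS alone, 102 FPKM. The plain ratio of nicotine over vehicle was 4.64 in knockout and 13.3 in wild type cells, and with 1 library per group that difference between genotypes was not tested.

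Dusp4 had 16.9 FPKM in knockout and 11.9 FPKM in wild type cells given nicotine, against 2.80 and 1.35 FPKM with vehicle (log2 change 2.35 ± 0.14, limma adjusted p = 0.000243). Dusp10, which had not passed the test with LPS, had 6.35 FPKM in knockout and 7.30 FPKM in wild type cells given nicotine, against 1.21 and 1.08 FPKM with vehicle (1.87 ± 0.24, adjusted p = 0.00124). Dusp8 had 0.829 FPKM in knockout and 3.33 FPKM in wild type cells given nicotine, against 0.0429 and 0.117 FPKM with vehicle (1.38 ± 0.28, adjusted p = 0.00619). In each of these genes both nicotine libraries lay above both vehicle libraries. The plain ratio of nicotine over vehicle for Dusp8 was 19.3 in knockout and 28.5 in wild type cells. Without the wild type nicotine library the Dusp8 change was 1.06 (adjusted p = 0.052).

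Dusp16, Dusp2 and Dusp5 showed smaller rises with nicotine alone. Dusp16 had 8.91 FPKM in knockout and 11.1 FPKM in wild type cells given nicotine, a log2 change of 1.27 ± 0.18 over vehicle (limma adjusted p = 0.00169). Dusp2 had 5.95 FPKM in knockout and 9.31 FPKM in wild type cells given nicotine, a change of 0.94 ± 0.18 (adjusted p = 0.0055). Dusp5, at 3.77 FPKM in knockout and 3.69 FPKM in wild type cells given nicotine, changed by 0.68 ± 0.20 (adjusted p = 0.0289).

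That last call was fragile. It was lost with a pseudocount of 5 (adjusted p = 0.134), without a filter on low values (adjusted p = 0.0631), and without the knockout nicotine with LPS, wild type nicotine with LPS, wild type nicotine, knockout vehicle or wild type vehicle library (adjusted p = 0.0538, 0.0537, 0.19, 0.107 and 0.133). The Dusp5 log2 change itself was 0.38 with the wild type nicotine library left out. Dusp14 did not pass, at 0.897 FPKM in knockout and 0.321 FPKM in wild type cells given nicotine, against 0.161 and 0.125 FPKM with vehicle (0.47 ± 0.19, adjusted p = 0.0752). It passed with a pseudocount of 0.1 (1.42, adjusted p = 0.0189) and when the wild type nicotine library was dropped (0.71, adjusted p = 0.047).

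Dusp6 went the other way, with 3.86 FPKM in knockout and 2.68 FPKM in wild type cells given nicotine, against 9.16 and 9.69 FPKM with vehicle. The log2 change was -1.30 ± 0.20 (2.47-fold lower, limma adjusted p = 0.0025), and the groups did not overlap.

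**Figure D3:**
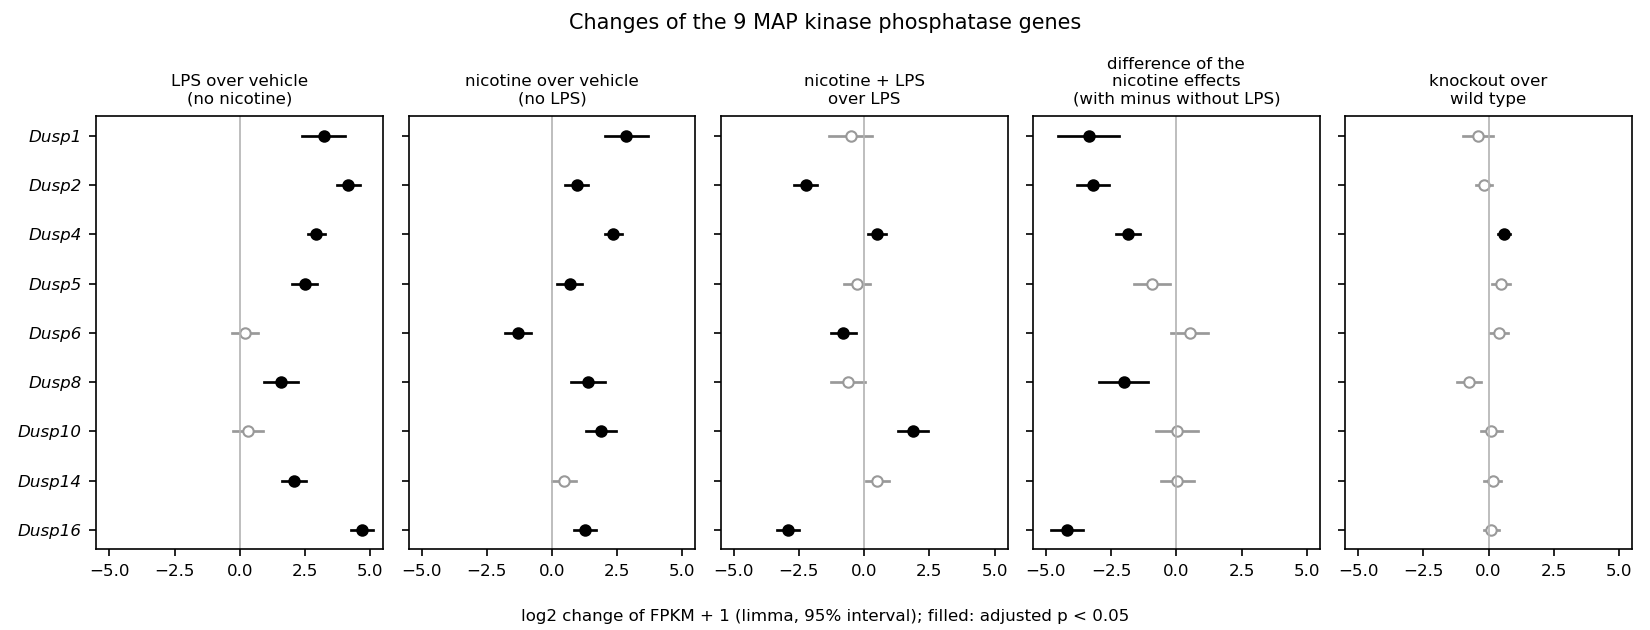
Points give the log2 change of FPKM + 1 for each gene in 5 comparisons, with the 95% interval from limma as a bar. Filled black points passed an adjusted p of 0.05. Dusp16 and Dusp2 lie far right of 0 with LPS alone (4.68 and 4.17) and left of 0 when nicotine with LPS is set against LPS alone (-2.92 and -2.24), while Dusp10 lies at 1.87 and 1.89 in the 2 nicotine panels.

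For nicotine given before LPS, against LPS alone, calls went in both directions, as they did over all genes. Dusp16, Dusp2 and Dusp6 were lower, Dusp10 and Dusp4 were higher, and the other 4 did not pass the test. Over all genes tested, 26.9% were called higher and 28.6% lower (55.6% in all), so the number of calls among the phosphatases, 5 of 9, was near the background, and the sizes of the changes were not alike. The median log2 change of the 9 genes was -0.52, against -0.03 over all genes.

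Dusp16 had 15.4 FPKM in knockout and 13.3 FPKM in wild type cells given nicotine and LPS, against 125 and 105 FPKM with LPS alone. It was 7.57-fold lower on the FPKM + 1 scale (log2 change -2.92 ± 0.18, limma adjusted p = 0.000178), the 143rd lowest of 10447 genes. The level with nicotine and LPS was 1.72 times that with nicotine alone in knockout cells and 1.20 times in wild type cells.

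Dusp2 had 16.0 FPKM in knockout and 15.3 FPKM in wild type cells given nicotine and LPS, against 77.1 and 79.0 FPKM with LPS alone (4.73-fold lower, log2 change -2.24 ± 0.18, limma adjusted p = 0.000308). The fall was of like size in the genotypes, with FPKM ratios of 0.208 in knockout and 0.194 in wild type cells. For Dusp16 these ratios were 0.122 and 0.127.

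Dusp6 had 7.70 FPKM in knockout and 4.49 FPKM in wild type cells given nicotine and LPS, against 13.7 and 8.81 FPKM with LPS alone (log2 change -0.80 ± 0.20, limma adjusted p = 0.0158). It was lower in each genotype, but the knockout value with nicotine and LPS was near the wild type value with LPS alone. The call was lost without the wild type nicotine with LPS library (-0.62, adjusted p = 0.127) or the knockout LPS library (-0.67, adjusted p = 0.0714).

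Dusp10 had 8.30 FPKM in knockout and 9.51 FPKM in wild type cells given nicotine and LPS, against 2.41 and 1.10 FPKM with LPS alone (3.69-fold higher, log2 change 1.89 ± 0.24, limma adjusted p = 0.00112). Its 4 nicotine libraries, at 6.35 to 9.51 FPKM, lay above its 4 libraries without nicotine, at 1.08 to 2.41 FPKM. The share of all genes that separate in this way was not counted. Dusp4 reached its highest levels here, 40.2 FPKM in knockout and 24.1 FPKM in wild type cells given nicotine and LPS, against 26.4 and 18.0 FPKM with LPS alone (0.50 ± 0.14, adjusted p = 0.0215).

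The Dusp4 groups overlapped, since the knockout level with LPS alone exceeded the wild type level with both agents, although it was higher with both agents within each genotype. The call was lost without the knockout nicotine with LPS (0.42, adjusted p = 0.143), wild type nicotine with LPS (0.57, adjusted p = 0.0726) or knockout LPS library (0.45, adjusted p = 0.069). The summed mast cell, dendritic cell, B cell (352 FPKM in knockout and 293 FPKM in wild type cells) and T cell markers (8.76 and 10.1 FPKM) were also highest in the 2 libraries given nicotine and LPS, and their part in the levels of Dusp4, Dusp10 and Dusp14 was not tested.

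The remaining genes gave no call. Dusp1 had 50.3 FPKM in knockout and 90.3 FPKM in wild type cells given nicotine and LPS, against 91.5 and 102 FPKM with LPS alone (log2 change -0.52 ± 0.34, 95% interval -1.33 to 0.30, limma adjusted p = 0.238). Dusp5 had 15.6 FPKM in knockout and 10.4 FPKM in wild type cells given nicotine and LPS, against 21.0 and 11.4 FPKM with LPS alone (-0.27 ± 0.20, interval -0.76 to 0.22, adjusted p = 0.3). Both were lower with nicotine in each genotype, by less than the test could separate from the spread.

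Dusp8 had 0.618 FPKM in knockout and 1.73 FPKM in wild type cells given nicotine and LPS, against 1.35 and 3.50 FPKM with LPS alone (-0.63 ± 0.28, limma adjusted p = 0.0937). It passed without the knockout vehicle or wild type vehicle library (adjusted p = 0.0402 and 0.0399). Dusp14 had 6.24 FPKM in knockout and 5.46 FPKM in wild type cells given nicotine and LPS, its highest values, against 3.66 and 3.95 FPKM with LPS alone (0.51 ± 0.19, adjusted p = 0.059). It passed with a pseudocount of 5 (adjusted p = 0.0167), without the expression trend (adjusted p = 0.0493), and after leaving out the knockout nicotine or wild type nicotine library (adjusted p = 0.0471 and 0.0464).

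Whether nicotine acted differently in cells with and without LPS was tested directly, as the nicotine effect with LPS minus the nicotine effect without LPS. This difference was negative for 5 of the 9 genes, Dusp16, Dusp1, Dusp2, Dusp8 and Dusp4, and positive for none. Among all genes tested, 17.3% were called negative and 12.8% positive (30.1% in all). The median difference was -1.85 for the 9 genes and -0.11 over all genes. Dusp8 is among the 5 and passed the filter through groups where it was high. Of the 6 members with a mean of at least 5 FPKM, 4 were called negative and 0 positive (median -2.52). The counts over all 7399 genes at that mean were 1610 and 686 (median -0.26). Again Dusp5 met this mean through its libraries given LPS, and Dusp2, Dusp4 and Dusp16 were under 5 FPKM with vehicle. Among 7 other phosphatases acting on MAP kinases, 5 were called negative and 1 positive, but 0 were called with quantile normalization.

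For Dusp16 the difference was -4.19 ± 0.25 on the log2 scale (limma adjusted p = 0.00189), the 25th lowest of 10447 genes. The LPS response of Dusp16, the plain FPKM ratio with LPS over without, was 1.72 in knockout and 1.20 in wild type cells after nicotine, against 31.4 and 33.8 without nicotine. Dusp2 gave a difference of -3.19 ± 0.26 (adjusted p = 0.00315), with LPS responses of 2.70 in knockout and 1.65 in wild type cells after nicotine, against 24.8 and 21.2 without it. For both genes the LPS response was smaller after nicotine in each genotype.

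Dusp1 gave a difference of -3.36 ± 0.48 (limma adjusted p = 0.00688), the 55th lowest. In wild type cells, unlike Dusp16, Dusp1 with nicotine alone was at about its LPS level. This did not hold in knockout cells, where Dusp1 had 52.1 FPKM with nicotine alone, 91.5 FPKM with LPS alone and 50.3 FPKM with both agents. The Dusp1 level with both agents was 0.964 of that with nicotine alone in knockout and 0.844 in wild type cells. Dusp8 gave -2.01 ± 0.39 (adjusted p = 0.0137). In each genotype its level with both agents was, like that of Dusp1, below that with either agent alone. The Dusp8 call was lost without the knockout nicotine with LPS, wild type nicotine with LPS or wild type nicotine library (adjusted p = 0.0554, 0.0595 and 0.0543).

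Dusp4 gave -1.85 ± 0.19 (limma adjusted p = 0.00402), although its level with both agents was above that with either alone, so that the rises with the 2 agents did not add up on the log2 scale. For Dusp5 the difference was -0.95 ± 0.29 with an adjusted p = 0.0501, at the threshold, and it passed with a pseudocount of 0.1 (adjusted p = 0.0389), with quantile normalization (adjusted p = 0.0251), and without the wild type LPS or knockout nicotine library (adjusted p = 0.0323 and 0.0401). The 95% intervals were -0.79 to 0.83 for Dusp10, -0.61 to 0.69 for Dusp14 and -0.19 to 1.20 for Dusp6, which did not pass (adjusted p = 0.969, 0.92 and 0.219). The sign of the Dusp10 and Dusp14 estimates depended on the settings.

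**Figure D4:**
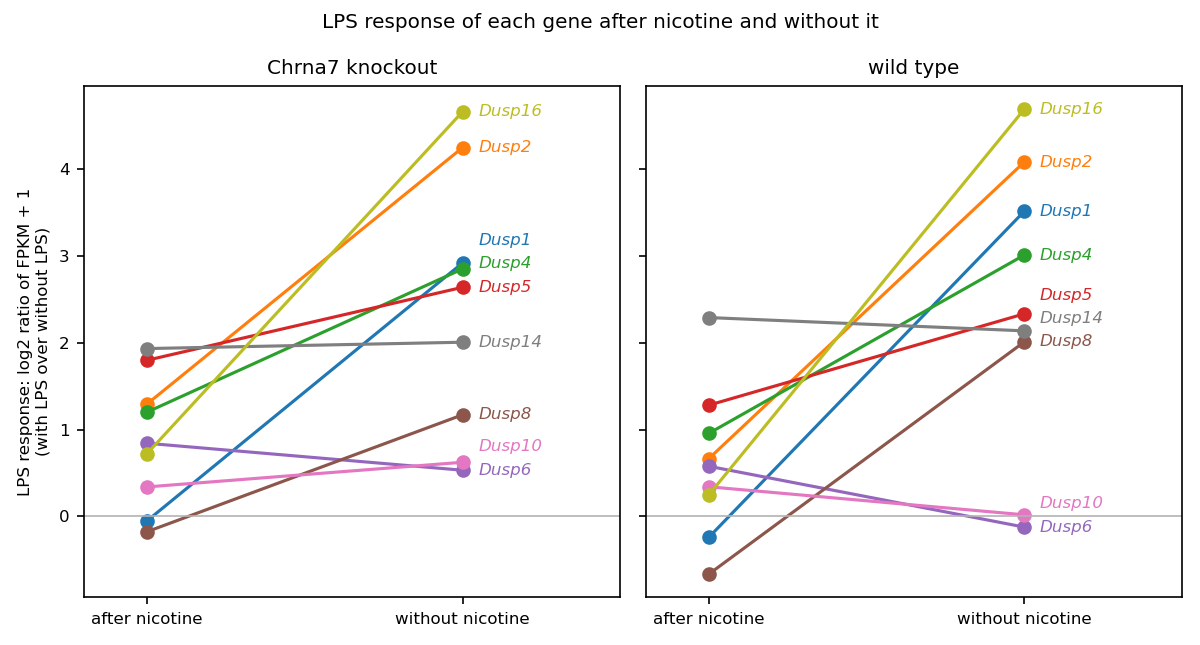
Points give the LPS response of each gene, the log2 ratio of FPKM + 1 with LPS over without LPS, after nicotine (left in each panel) and without nicotine (right), from 1 library each, in knockout and in wild type cells. The lines of Dusp16, Dusp2, Dusp1, Dusp8 and Dusp4 run upwards to the right in both panels. So does that of Dusp5, which did not pass the test, and that of Dusp14 is nearly level.

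Across the 4 treatments (n = 4 libraries per genotype) Dusp4 was higher in knockout than in wild type cells, and the other 8 genes did not pass the test. Of all genes tested, 4.76% were called higher and 2.88% lower in knockout cells (7.64% in all), so 1 call among 9 genes is near the background. A missing call does not show that the genotypes were alike. The median log2 difference of the 9 genes was 0.11, against -0.01 over all genes.

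The FPKM ratio of Dusp4 in knockout over wild type cells was 1.67 with nicotine and LPS, 1.47 with LPS alone, 1.42 with nicotine alone and 2.07 with vehicle. It was thus higher in the knockout in 4 of 4 treatments (log2 difference 0.60 ± 0.10, limma adjusted p = 0.0194). The call was lost when either nicotine with LPS, either nicotine or either vehicle library was left out (adjusted p = 0.0715 to 0.108), and in an additive model of LPS, nicotine and genotype (adjusted p = 0.593).

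Dusp8 was lower in the knockout in 4 of 4 treatments, with FPKM ratios of 0.249 to 0.385, but did not pass (log2 difference -0.76 ± 0.20, limma adjusted p = 0.0684). It passed with a pseudocount of 0.1 (-1.29, adjusted p = 0.041) and without the knockout vehicle or wild type vehicle library (-0.98 each, adjusted p = 0.045 and 0.0446). Dusp1 differed between genotypes mainly in the libraries with nicotine, with ratios of 0.556 with nicotine and LPS and 0.487 with nicotine alone, against 0.894 with LPS alone and 1.40 with vehicle (-0.40 ± 0.24, adjusted p = 0.343). The log2 difference was 0.48 ± 0.14 for Dusp5 (adjusted p = 0.0999) and 0.39 ± 0.14 for Dusp6 (adjusted p = 0.149), neither past the threshold. The 95% intervals of Dusp2, Dusp10, Dusp14 and Dusp16 all lay between -0.50 and 0.52.

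Profiles were also compared between genes, as the root mean square difference of mean-centred log2(FPKM + 1) over the 8 libraries, among 7212 genes whose mean reached 5 FPKM. This likeness is a description over libraries that share their treatments. Dusp16 was the nearest gene to Dusp2, at 0.31, and Dusp2 was the nearest to Dusp16. The next nearest to Dusp2 were Chsy3 (0.32) and Tmem2 (0.35), and to Dusp16 Tmem2 (0.45) and a gene whose symbol the table gives as a date, 5-Mar (0.50). Nearest to Dusp1 were Rgl1 (0.33), Ankrd33b (0.35) and Prkx (0.42), and nearest to Dusp4 were Zc3hav1 (0.29), Dcbld2 (0.31) and Rab20 (0.32).

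The profile of Dusp5 was most like those of Larp1b (0.18), Kpna3 (0.23) and Map3k8 (0.26), the last encoding the kinase that links Toll-like receptors to ERK in macrophages. That of Dusp6 was most like those of Usf1 (0.18), Ap3m2 (0.23) and Ppp1r18 (0.24). Dusp8, Dusp10 and Dusp14, with means under 5 FPKM, were not placed.

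The kinases on which these phosphatases act, and their activators, moved in both directions. Over all tested genes, 32.7% were called higher and 26.4% lower with LPS alone (59.1% in all). With nicotine alone the shares were 30.1% and 26% (56% in all), and with nicotine before LPS 26.9% and 28.6% (55.6% in all). The calls of this list and of those below stand against these shares. Of 14 MAP kinase genes, 9 were tested. With LPS alone 3 rose and 3 fell, with nicotine alone 4 rose and 3 fell, and with nicotine before LPS 3 rose and 3 fell against LPS alone. Mapk3, encoding ERK1, had 31.7 FPKM in knockout and 35.4 FPKM in wild type cells given LPS and 30.6 and 31.9 FPKM with nicotine, against 68.2 and 93.5 FPKM with vehicle (log2 changes -1.23 ± 0.15 and -1.33 ± 0.15, limma adjusted p = 0.000758 and 0.000811). Mapk6, encoding the atypical kinase ERK3, was 2.64-fold higher with LPS and 4.57-fold higher with nicotine, the largest rises of the list. Mapk9, encoding JNK2, fell most when nicotine preceded LPS (2.78-fold lower).

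Among 22 tested upstream kinases of 25 listed, 9 rose and 7 fell with LPS alone and 11 rose and 5 fell with nicotine alone. When nicotine with LPS was set against LPS alone, 8 rose and 5 fell. Map2k1, encoding the ERK activator MEK1, had 88.4 FPKM in knockout and 72.2 FPKM in wild type cells given nicotine and LPS, 236 and 235 FPKM with LPS alone, 77.8 and 68.6 FPKM with nicotine alone, and 38.9 and 35.2 FPKM with vehicle. The LPS rise of Map2k1 was 6.21-fold (log2 change 2.63 ± 0.13, adjusted p = 6.33e-05, limma) and its nicotine effects with and without LPS differed by -2.51 ± 0.19, the lowest of the list. The kinase gene Map3k2 rose most with nicotine, 3.95-fold without LPS and 5.71-fold with it, and the stress kinase gene Map3k5 fell most when nicotine preceded LPS (3.25-fold lower). Map2k3, which encodes an activator of p38, was 1.66-fold lower in knockout cells and was the only gene of the 6 lists of related genes called between genotypes (limma adjusted p = 0.0237). Without a filter on low values that call was lost, and 1 of 14 MAP kinase genes was called lower.

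All 10 kinases that MAP kinases activate were tested. With LPS alone 4 rose and 4 fell, with nicotine alone 3 rose and 3 fell, and with nicotine before LPS 5 rose and 2 fell. Mapkapk2, the p38 target kinase that stabilizes cytokine mRNAs, was 3.94-fold higher with LPS. Mknk2 was 4.51-fold lower with LPS alone and 6.76-fold higher when nicotine preceded LPS.

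Of 18 genes of ERK output and Sprouty feedback 13 were tested, of which 8 rose and 1 fell with LPS alone, 4 rose and 2 fell with nicotine alone, and 3 rose and 6 fell when nicotine preceded LPS. Phlda1 rose most with LPS (30.5-fold, log2 change 4.93 ± 0.33, limma adjusted p = 0.000124) and the AP-1 subunit gene Fosl1 rose most with nicotine alone (8.09-fold). Spred1, an inhibitor of the Ras-ERK pathway, had 18.5 FPKM in knockout and 18.1 FPKM in wild type cells given nicotine and LPS, against 87.4 and 80.6 FPKM with LPS alone (4.41-fold lower), the largest fall of the list in that comparison. Spred1 also rose with LPS alone (3.08 ± 0.15, adjusted p = 6.1e-05), as Dusp16 and Dusp2 did, but unlike them it fell with nicotine alone (-0.85 ± 0.15, adjusted p = 0.0038). The fall of Etv5 with LPS alone, the single one in the list, was not called with quantile normalization.

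Other phosphatases that act on MAP kinases were tested in 7 of 9 cases, with 5 higher and 1 lower after LPS alone and 6 higher and 0 lower after nicotine alone. Ppp2ca, a catalytic subunit of protein phosphatase 2A, rose most with LPS (2.58-fold), and Ppm1a most with nicotine (2.41-fold). With quantile normalization, 2 were higher and 1 lower after LPS alone, and 4 were higher after nicotine alone. When nicotine preceded LPS, 2 rose and 1 fell, with Ppm1d 3.79-fold higher.

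The rest of the dual-specificity phosphatases had 17 listed genes, of which 10 were tested, 6 stayed under 1 FPKM in all libraries and 2 of these were listed at 0 throughout. Of the 10, 2 were higher and 4 lower both after LPS alone and after nicotine alone, and 2 higher and 3 lower when nicotine preceded LPS. Calls in both directions were also the background. Over all genes, 32.7% were higher and 26.4% lower after LPS alone, and 30.1% and 26% after nicotine alone. When nicotine preceded LPS the shares were 26.9% and 28.6%. Dusp3, which acts on ERK and JNK, ran opposite to Dusp16 in the comparisons with LPS, with 20.7 FPKM in knockout and 37.4 FPKM in wild type cells given nicotine and LPS, 5.96 and 7.43 FPKM with LPS alone, 58.7 and 72.1 FPKM with nicotine alone, and 29.6 and 62.6 FPKM with vehicle. It was 5.75-fold lower with LPS alone (log2 change -2.52 ± 0.22, limma adjusted p = 0.000257) and 3.77-fold higher when nicotine preceded LPS (adjusted p = 0.000825). Dusp13 rose most with nicotine alone, to 10.8 FPKM in knockout and 23.1 FPKM in wild type cells, against 0.62 and 0.633 FPKM with vehicle (10.4-fold on the FPKM + 1 scale). It passed the filter on the mean through the libraries where it was high, and was under 1 FPKM in every library without nicotine, so its call is little more than the filter required.

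With quantile normalization the median log2 change of all genes after LPS alone was -0.07 in place of 0.08, and 45.2% of the calls were rises in place of 55.4%. For the difference of nicotine effects, 55.4% of the calls were positive in place of 42.4%. The 9 phosphatases gave 7 rises and 0 falls with LPS alone, 7 rises and 1 fall with nicotine alone, and 2 rises and 3 falls when nicotine preceded LPS under that scaling too, and 0 positive and 6 negative differences of the nicotine effects. Exon bases of Dusp1 are shared in GENCODE M21 with Ergic1 on the opposite strand, those of Dusp5 with AC137853.2 and those of Dusp8 with Gm32786. The library kit does not mark strand, so reads from shared bases cannot be told apart. Ergic1 was listed at 12.7 to 25.0 FPKM, lowest in the 2 libraries given nicotine and LPS.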

How the data were processed

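Poly(A) RNA of 8 cultures was sequenced from TruSeq RNA Sample Prep Kit v2 libraries, per the labels' protocols. The deposited table holds 1 FPKM value per gene and library, computed by the authors, per the file headers. CASAVA 1.8, HISAT2, Cufflinks, Cuffdiff and mm10 are named without role in the submitters' processing notes. Annotation, filters and between-library scaling: not given in the sources used here. The table has no counts, so depth is unknown and no counting interval could be set. Low values may include failed estimates.

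Where a symbol occurred more than once (2 extra lines), only the line of highest mean entered. Differences of log2(FPKM + 1) were tested with limma 3.58.1 in R 4.3.3, with an expression trend, for 10447 genes, with Benjamini-Hochberg adjustment at 0.05. Treatment had 4 levels and genotype was a further term, leaving 3 residual degrees of freedom. An additive model would put the LPS by nicotine interaction into the spread. Alternatives were other pseudocounts, filters and scalings, no trend, the additive model and leaving out each library. The fit was also run on simulated data with independent noise and the same treatment effect in both genotypes. That run does not show whether the calls in these data hold. Positions came from GENCODE M21 and promoters from RefSeq. Python 3.11.15, pandas 2.3.3 and Matplotlib 3.10.9 served for the rest.

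The members, lists and tests were chosen with earlier results of these data known. All 9 members are described in every comparison. From each list, the largest rise and the largest fall past the threshold could be named, and for each member with a mean of at least 5 FPKM the 3 nearest profiles.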

Additional observations from a re-analysis of the deposited data

Results flagged for a closer look

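The nicotine effect differed between cells with and without LPS for 5 phosphatase genes, by the limma test of the difference itself. On the log2 scale it was lower with LPS by -4.19 for Dusp16, -3.36 for Dusp1, -3.19 for Dusp2, -2.01 for Dusp8 and -1.85 for Dusp4, in a comparison where 30.1% of all tested genes passed.

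LPS alone moved Dusp6 in opposite directions in the genotypes, with a log2 ratio over vehicle of 0.53 in knockout and -0.12 in wild type cells. With 1 library per group this difference was not tested.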

How the results depend on the processing

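Changes of the 9 genes in the 5 comparisons were recomputed under the alternatives, giving 669 values. In 617 the direction and the side of the threshold were those reported, 23 lost a call, 16 gained one and 13 changed sign, none of them a called change. A pseudocount of 0.1 turned the difference of nicotine effects to -0.10 for Dusp10 and -0.81 for Dusp14, and quantile normalization turned that of Dusp10 to -0.29. Leaving out single libraries, it ranged from -0.37 to 0.41 for Dusp10 and from -0.20 to 0.28 for Dusp14. The change with LPS alone then ranged from -0.073 to 0.71 for Dusp10 and from -0.11 to 0.51 for Dusp6, and the genotype difference of Dusp10 from -0.087 to 0.21. When a library was left out, the lone library of its treatment was assumed to vary like the others.

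The number of genes called between genotypes was 798, against 271 without a filter on low values and 115 in the additive model. The additive model puts the LPS by nicotine interaction into the spread. The Dusp4 difference was 0.60 in both models, with an SE of 0.10 in the main model and 0.37 in the additive model. The cause of the lower number without a filter was not tested. Leaving out single libraries gave 155 to 1120, with 155 to 267 without any nicotine with LPS, nicotine or vehicle library. Such counts ranged from 4184 to 5974 for LPS alone (6172 with all libraries), from 3793, without the wild type vehicle library, to 6461 for nicotine alone (5855), from 3700, without the wild type nicotine with LPS library, to 5564 for nicotine before LPS (5804), and from 1035 to 3706 for the difference of nicotine effects (3143). The last lay between 1035 and 1939 without any library that was not given LPS alone. No paired analysis was possible because each group has a single library, so no replicate number could serve as a block. The genotype term of the model already compares treatments within genotype. Without counts, what depth limits is unknown, and values of Dusp8 and Dusp14 under 1 FPKM are the least certain.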

Other observations

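Dusp7, a cytoplasmic phosphatase of ERK like Dusp6, was chosen for description after its values were seen. It had 12.9 FPKM in knockout and 14.0 FPKM in wild type cells given nicotine and LPS, 10.3 and 11.5 FPKM with LPS alone, 7.86 and 7.37 FPKM with nicotine alone, and 9.69 and 16.6 FPKM with vehicle. It was lower with nicotine alone (log2 change -0.67 ± 0.21, limma adjusted p = 0.0312) and did not pass with LPS alone (-0.21, adjusted p = 0.416) or when nicotine preceded LPS (0.28, adjusted p = 0.287). Dusp9, the third cytoplasmic ERK phosphatase of the family, stayed between 0.0927 and 0.316 FPKM in all 8 libraries.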
